A study of Rattus norvegicus with 7 samples.

Results

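The Kruppel-like factors (Klf genes) were followed in rat bone marrow mesenchymal stem cells (rMSCs) 4 h after the cells were placed on 3 different surfaces. The 10 genes were Klf2, Klf3, Klf4, Klf5, Klf6, Klf7, Klf9, Klf10, Klf13 and Klf15, taken by gene symbol from the 17147 genes listed in every library. The family was chosen by the levels of Klf2, which was low on PCL and high on TCP and ISB-P, so those levels are given as a description and are not tested. The other 9 genes came in as relatives of Klf2, with earlier results of these data known.

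The cells were primary rMSCs from hind limb marrow, and no genetic change is named. The donor is given as male, of the Sprague-Dawley strain and aged 6 weeks. The description of the isolation speaks of the donor in the singular and later in the plural. How many animals gave the sequenced cells is not stated, so the libraries cannot be counted as separate animals. PCL was a polycaprolactone film, ISB-P a film of a polycaprolactone-polyurethane copolymer made with propoxylated isosorbide, and TCP uncoated tissue culture plastic, the surface on which such cells are usually grown. Each of these received 20000 cells, the films being 16 mm across and sterilized with ethylene oxide gas. The growth medium described for rMSCs held serum, but the medium of the sequenced cultures is not named. Polyadenylated RNA was sequenced, and 3 PCL, 3 ISB-P and 1 TCP libraries were analysed here. The methods describe the sequencing as done in triplicate, and any further TCP library was not analysed here. The study asked how the transcriptome differed among the surfaces. Levels are in FPKM, fragments scaled to transcript length and to the mapped fragments of the library, so that levels of different genes can be set side by side. The values of a library summed to between 539393 and 660124, which is not a read depth. The number of reads is unknown, and precision rests on the 3 libraries of each film. The paper speaks of triplicate experiments on the films without saying what was repeated, and the labels do not say it either, so the p-values measure only the spread between these libraries, which may be technical.

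Kruppel-like factors are transcription factors that bind GC-rich and CACCC-containing DNA through zinc fingers at their C-terminal end, while the rest of the protein recruits activators or repressors. Several of them, Klf2, Klf4, Klf6 and Klf10 among them, are induced within hours by serum, mechanical force, injury or transforming growth factor beta (TGF-beta). In mesenchymal cells the family is known for opposing or promoting the fat cell fate, with Klf2, Klf3 and Klf7 as inhibitors and Klf4, Klf5, Klf9 and Klf15 as promoters. In bulk RNA, fewer cells expressing a gene and less RNA per cell cannot be told apart.

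Promoter sequence was available for 7 of the 10 genes (Klf2, Klf10 and Klf13 were not among them) in RefSeq's rat assembly GRCr8, which is not the build of the expression values. Shown are the 250 bases before the start of Klf6, the most abundant member, of Klf9, which lay slightly higher on ISB-P, and of Klf5, which lay lower on ISB-P, chosen because in these genes the stretch also ends where the annotated gene begins. Capitals mark CACCC, the core of the site that the family itself binds, and the GC box GGGCGG, each read on both strands, so that GGGTG is a CACCC of the opposite strand. The stretches lie at chr17:69458479-69458728 on the minus strand for Klf6, chr1:230126396-230126645 on the plus strand for Klf9 and chr15:82471831-82472080 on the plus strand for Klf5.
Klf6: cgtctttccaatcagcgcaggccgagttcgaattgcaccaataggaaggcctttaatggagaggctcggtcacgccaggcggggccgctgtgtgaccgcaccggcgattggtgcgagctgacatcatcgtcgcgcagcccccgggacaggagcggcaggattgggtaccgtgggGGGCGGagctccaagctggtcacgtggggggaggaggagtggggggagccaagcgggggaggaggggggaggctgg
Klf9: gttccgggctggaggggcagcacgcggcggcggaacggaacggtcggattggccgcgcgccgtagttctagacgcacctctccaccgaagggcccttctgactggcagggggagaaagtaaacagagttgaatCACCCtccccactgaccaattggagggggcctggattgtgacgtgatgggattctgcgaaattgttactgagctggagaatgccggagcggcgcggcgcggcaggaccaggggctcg
Klf5: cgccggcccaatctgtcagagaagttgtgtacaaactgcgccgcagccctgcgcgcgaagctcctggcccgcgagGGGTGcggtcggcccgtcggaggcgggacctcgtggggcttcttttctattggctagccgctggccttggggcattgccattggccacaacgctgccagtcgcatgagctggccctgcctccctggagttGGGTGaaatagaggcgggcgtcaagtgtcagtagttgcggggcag
Klf6 held 1 GC box and no CACCC, Klf9 held 1 CACCC and Klf5 held 2. Among 33469 rat promoters, 49.2% held at least 1 CACCC and 30.5% at least 1 GC box in the same 250 bases. The AP-1 site TGACTCA, the cAMP response element TGACGTCA, and the consensus MEF2 site and heat shock element were found in 4.05%, 1.59%, 0.125% and 0.663% of all promoters and in none of these 3. The MEF2 search counted only matches to a fixed spelling with no alternative letters, so variant forms of that site were not searched. Among the other 4 promoters searched, Klf3 held 4 CACCC, Klf7 held 2 with 1 GC box, Klf15 held 1 and Klf4 none of either motif, but those stretches do not end at the annotated gene start.

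Klf6 was the most abundant member on every surface. It was first in order on PCL and on ISB-P without overlap with the next gene, Klf10. On PCL the following genes, Klf5, Klf3, Klf4, Klf13 and Klf9, overlapped with their neighbours in order and had means from 14.0 down to 8.84 FPKM. Klf2 and Klf7 came below them at 5.59 and 5.18 FPKM, with overlapping ranges. On ISB-P, Klf2 came next after Klf10 at 41.1 FPKM, with ranges overlapping those of Klf10 above it and Klf4 below it. On TCP, where there is 1 library, Klf2 and Klf4 came next after Klf6. Klf15 was last everywhere, between 0.0722 and 0.334 FPKM. The 10 genes summed to 150.4 to 222 FPKM on PCL, 312 to 430 on ISB-P and 358 on TCP, so the films did not overlap. Without Klf2, whose levels chose the family, the other 9 genes summed to 144 to 218 FPKM on PCL, 254 to 412 on ISB-P and 290.3 on TCP. Klf6 alone made up 48.6% to 57.5% of the sum of all 10 on PCL, 42.2% to 64.3% on ISB-P and 32.5% on TCP.

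**Figure D1:**
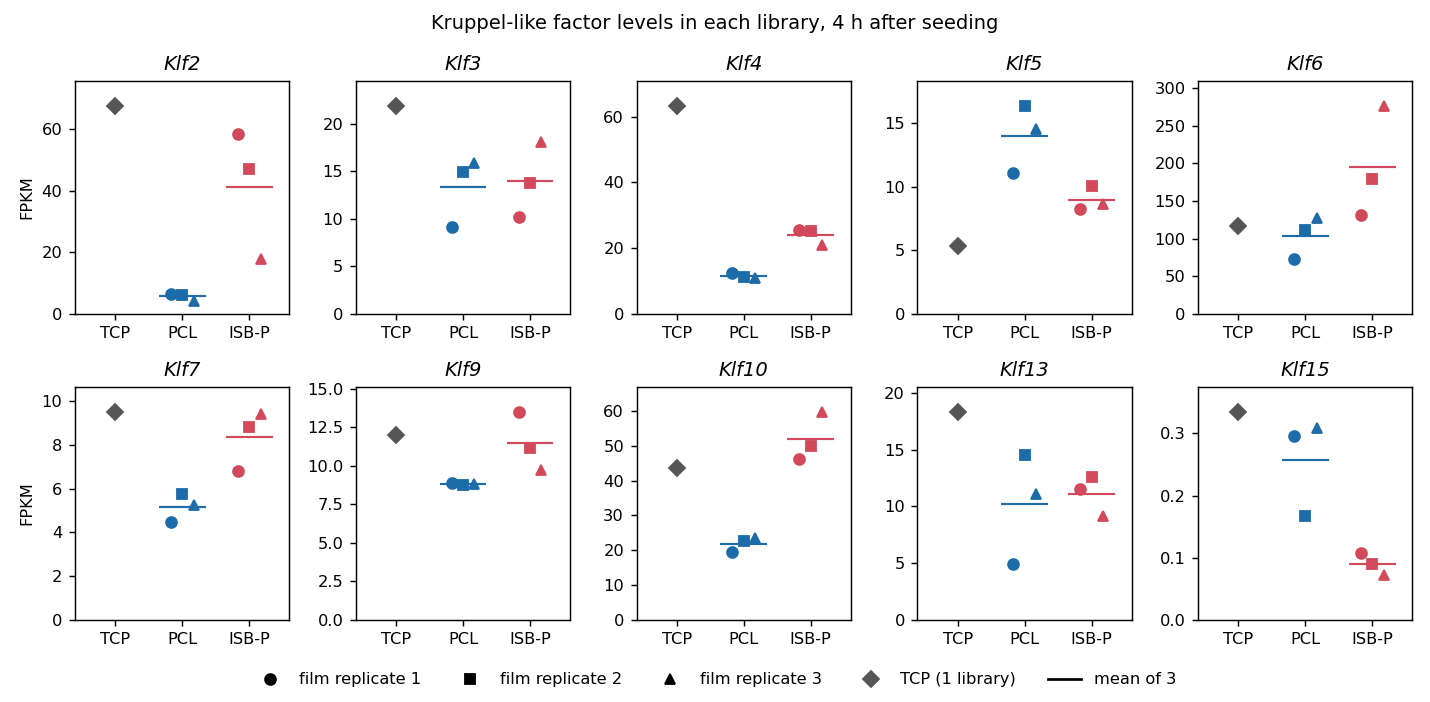
Level in FPKM (y axis, linear, from 0) of each of the 10 genes in the single TCP library and in replicates 1 to 3 of PCL and ISB-P. Horizontal lines are means of 3 libraries. Klf2, Klf4, Klf6, Klf7, Klf9 and Klf10 have all their ISB-P points above all their PCL points, Klf5 and Klf15 are lower, and Klf3 and Klf13 overlap.

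The first comparison asked which members differed between ISB-P and PCL. The 3 ISB-P libraries lay above all 3 PCL libraries for Klf2, Klf4, Klf6, Klf7, Klf9 and Klf10, and below them for Klf5 and Klf15. Leaving out Klf2, which chose the family, and Klf15, which failed the filter on low values, 5 of the 8 remaining members were separated upward and 1 downward. Over all 9467 genes tested, 8.17% were separated upward and 9.54% downward, 17.7% in all. In limma's moderated test on log2(FPKM + 1), with p-values adjusted over all these genes by the Benjamini-Hochberg method, 2 of the 8 members tested besides Klf2 passed an adjusted p of 0.05, Klf4 and Klf10, both higher on ISB-P. The share of all tested genes that passed was 1.72%, with 1.1% higher and 0.623% lower on ISB-P. Of the 8, 5 had an unadjusted p under 0.05, as 12.1% of all tested genes had, and the median log2 difference of the 8 was 0.46, against 0.02 over all tested genes. Calls over all genes were 104 higher and 59 lower as deposited, but 70 and 70 after scaling to a common total, which moved the median of all tested genes from 0.02 to -0.09. Same-numbered libraries of PCL and ISB-P deviated together. Treated as pairs (a block by replicate number), 5 of the 8 members passed as higher and 1 as lower, where 24.4% of all tested genes passed, 13% as higher and 11.4% as lower. Over all genes the blocked calls were 1228 higher and 1079 lower, but 714 and 2113 after scaling to a common total. The higher ones were Klf4, Klf6, Klf7, Klf9 and Klf10, and the lower one was Klf5.

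Klf2 is a factor of quiescent endothelial and T cells and restrains fat cell formation. On PCL its level was 6.51 FPKM in replicate 1, 6.20 in replicate 2 and 4.05 in replicate 3. On ISB-P the values were 58.4, 47.2 and 17.7 in that order, and TCP had 67.6. The lowest ISB-P library was still over 2-fold above the highest PCL library. Within replicate numbers, ISB-P was 8.97-fold, 7.60-fold and 4.37-fold higher. These are the values that picked the family, and no test is attached to them.

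Klf4, one of the reprogramming factors and a close relative of Klf2, was 12.5, 11.1 and 10.9 FPKM in PCL replicates 1 to 3 and 25.4, 25.2 and 20.8 on ISB-P. ISB-P was 2.04-fold, 2.27-fold and 1.91-fold higher within replicate numbers. The log2 difference was 0.99 (standard error 0.13, adjusted p = 0.0224 in limma). With the block the standard error was 0.08 and the adjusted p was 1.02e-04. Without the block the adjusted p rose to 0.0586 under upper quartile scaling and 0.0647 under scaling to a common total. It was between 0.0701 and 0.170 when ISB-P replicate 1 or 2 or any of the 3 PCL libraries was left out.

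Klf10, first described as a TGF-beta inducible early gene in osteoblasts, was 19.6, 22.7 and 23.4 FPKM on PCL and 46.3, 50.0 and 59.7 on ISB-P. The films were far apart, the closest libraries being 46.3 and 23.4. The log2 difference was 1.21 (standard error 0.15, adjusted p = 0.0166 in limma), or an adjusted p of 2.16e-05 with the block. Without the block, leaving out ISB-P replicate 2 or any of the PCL libraries raised the adjusted p to between 0.0730 and 0.130.

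Klf6, a factor induced by tissue injury and by serum, was 73.0, 111 and 128 FPKM on PCL and 132, 179 and 276 on ISB-P. The lowest ISB-P library was only just above the highest PCL library, but ISB-P was 1.80-fold, 1.62-fold and 2.17-fold higher within replicate numbers. The log2 difference of 0.88 had a standard error of 0.32 and an adjusted p of 0.310 in limma. With the block the standard error was 0.09 and the adjusted p was 2.51e-04.

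Klf7, known from the outgrowth of axons and as an inhibitor of fat cell formation, was 4.49, 5.78 and 5.27 FPKM on PCL and 6.82, 8.80 and 9.41 on ISB-P. Its log2 difference was 0.59 (standard error 0.16, adjusted p = 0.157 in limma), and the adjusted p was 0.00220 with the block. Klf9, a target of glucocorticoid and thyroid hormone receptors, was 8.90, 8.79 and 8.82 FPKM on PCL and 13.5, 11.2 and 9.75 on ISB-P. PCL libraries were nearly identical for Klf9, and its log2 difference was 0.33 (standard error 0.14, adjusted p = 0.428 in limma, 0.0383 with the block). Scaled to a common total, Klf9 was no longer called with the block.

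Klf5, which drives proliferation and an early step of fat cell formation, went the other way. It was 11.1, 16.3 and 14.5 FPKM on PCL and 8.21, 10.1 and 8.61 on ISB-P, where every library was below the lowest PCL library. Within replicate numbers ISB-P was at 0.742, 0.616 and 0.592 of the PCL level. The log2 difference was -0.58 (standard error 0.17, adjusted p = 0.199 in limma), and the adjusted p was 0.00266 with the block. Klf15, a glucocorticoid target with roles in gluconeogenesis and fat cells, did not reach 1 FPKM in any library and was not tested. It was 0.296, 0.167 and 0.309 FPKM on PCL and 0.108, 0.0891 and 0.0722 on ISB-P.

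Klf3 and Klf13 overlapped between the films. Klf3, a repressor that works through the CtBP corepressors, was 9.17, 14.9 and 15.9 FPKM on PCL and 10.2, 13.7 and 18.1 on ISB-P. Its log2 difference was 0.07 with a 95% interval of -0.57 to 0.70 in limma, and its sign turned to -0.04 under scaling to a common total. Klf13, an activator of chemokine expression in T cells, was 4.88, 14.6 and 11.1 FPKM on PCL and 11.5, 12.6 and 9.11 on ISB-P. The 95% interval of its log2 difference of 0.21 was -0.62 to 1.05, and without PCL replicate 1, the lowest library, the difference was -0.19.

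**Figure D2:**
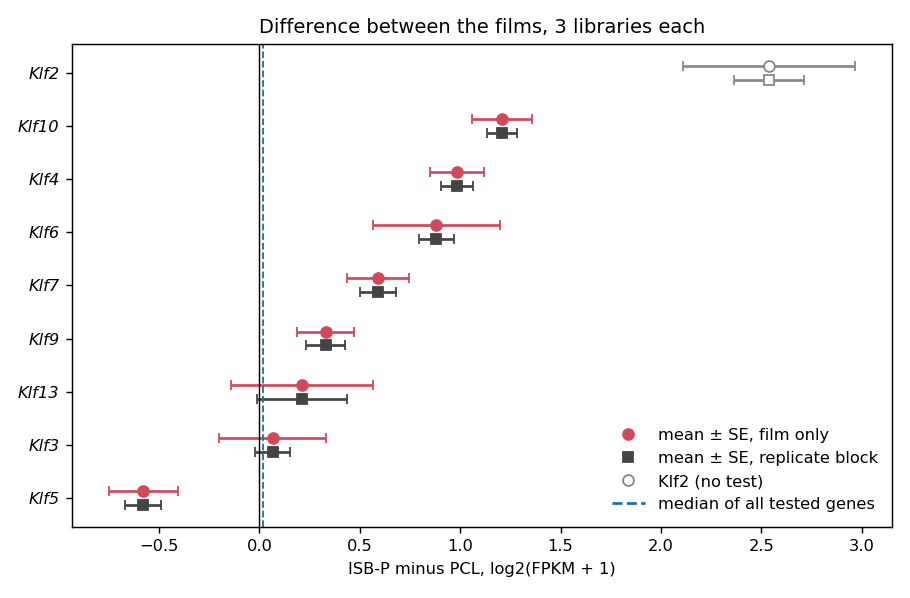
Difference between ISB-P and PCL in log2(FPKM + 1) (x axis) for the 9 genes that passed the filter on low values, as mean and standard error from the fit on film alone (circles) and from the blocked fit (squares), 3 libraries per film. Klf2 is drawn open because its difference picked the family. The dashed line is the median of all tested genes (0.02): Klf4 (0.99) and Klf10 (1.21) lie farthest to its right among the genes tested, and Klf5 lies to its left at -0.58.

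The replicate numbers are a contrast that played no part in picking the members. In a model with film and replicate number as terms, limma's F test of the number passed an adjusted p of 0.05 for 4 of the 9 members tested, against 58.4% of all tested genes, so the members were called no more often than genes at large. These were Klf6 (adjusted p = 6.91e-04), Klf3 (0.00144), Klf2 (0.00475) and Klf5 (0.0352). Klf2 was lowest in replicate 3 on either film, while Klf6 and Klf3 were lowest in replicate 1 and highest in replicate 3 on either film. Klf5 was highest in replicate 2 on either film. Klf7 (adjusted p = 0.0502) and Klf10 (0.0530) fell just short. In the ISB-P libraries Klf2 and Klf6 ran opposite to each other: Klf2 made up 18.7% of the family's summed level in replicate 1 and 4.12% in replicate 3, and Klf6 42.2% and 64.3%. What the replicate number stands for is not given in the labels.

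**Figure D3:**
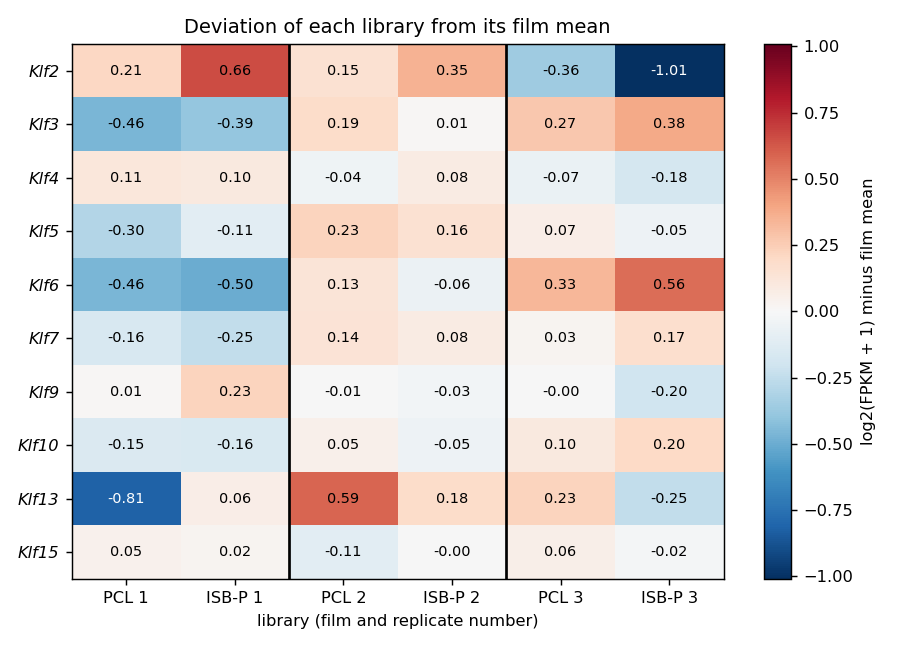
Deviation of each film library from the mean of its film in log2(FPKM + 1), for each of the 10 genes (rows), with libraries ordered so that same-numbered PCL and ISB-P libraries stand together (columns). For Klf2 replicate 3 is the lowest on each film (-0.36 and -1.01), for Klf6 it is the highest (0.33 and 0.56), and Klf4 moves by less than 0.2 throughout.

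The next comparison set the single TCP library against each film. It has no replicate check and no test. TCP was over 2-fold above the PCL mean for Klf2 and Klf4 and over 2-fold below it for Klf5, on the ratio of values with 1 FPKM added. Klf2 was picked for being high on TCP and low on PCL, and of the other 8 tested members 1 was over 2-fold higher and 1 over 2-fold lower. Over all tested genes 8.6% were past 2-fold, 3.04% higher and 5.56% lower on TCP than on PCL. Klf4 was 63.2 FPKM on TCP, which is 5.49 times its PCL mean and 2.65 times its ISB-P mean, and it was the only one of the 9 tested members past 2-fold against ISB-P, where 4.28% of all tested genes were over 2-fold higher and 8.98% over 2-fold lower on TCP, 13.3% in all. Klf5 was 5.29 FPKM on TCP, below all 6 film libraries, as 29.7% of all tested genes were. Klf10 was 43.5 FPKM, just under 2-fold above PCL and below every ISB-P library. Klf6 was 116 FPKM, inside the range of PCL and below every ISB-P library.
TCP was above all 6 film libraries for Klf3, Klf4, Klf7 and Klf13, 4 of the 8 tested members besides Klf2, a place that 25.4% of all tested genes took. The same held for Klf15, which was not tested, and for Klf2, which was picked for it in part. Klf7 was above the highest ISB-P library by little (9.51 against 9.41 FPKM). Klf3 was 21.9, Klf13 18.3 and Klf9 11.98 FPKM on TCP. For Klf2, TCP (67.6 FPKM) exceeded the ISB-P mean by 1.65-fold. Without ISB-P replicate 1, Klf2 was also over 2-fold higher on TCP than on ISB-P, so that 2 members rather than 1 were past 2-fold. Against PCL, Klf10 also passed 2-fold under each of the 3 other scalings and without PCL replicate 3, and Klf13 did without PCL replicate 2. The comparisons against PCL share the PCL libraries, and those against TCP the TCP library.

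**Figure D4:**
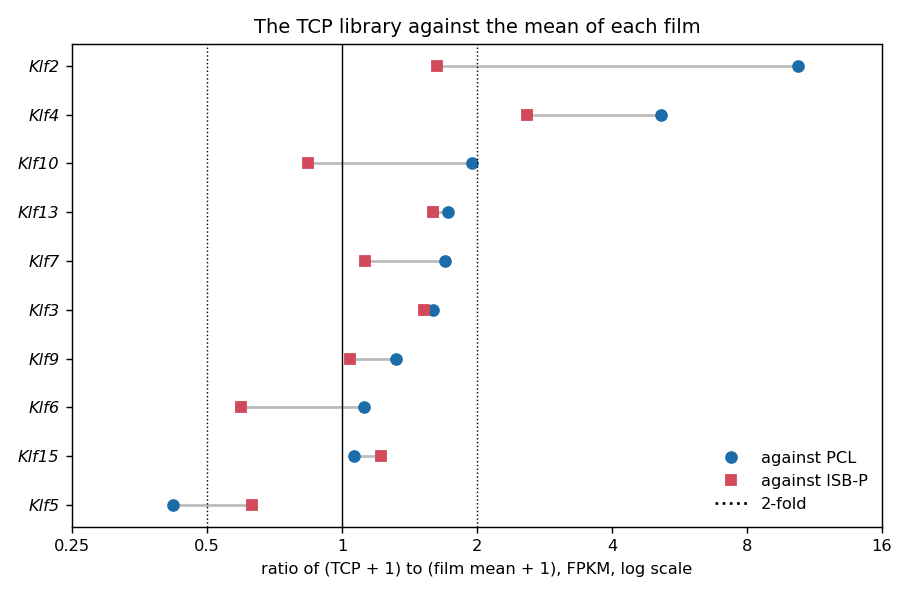
Ratio of the TCP value to the film mean, each with 1 FPKM added, on a log axis, for each of the 10 genes, against PCL (circles) and ISB-P (squares). Dotted lines mark 2-fold. Klf2 and Klf4 lie past 2-fold against PCL, Klf4 alone against ISB-P, and Klf5 lies below 0.5 against PCL (0.419); TCP is 1 library and has no error.

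Markers of other cells were read in the same libraries. All 9 mesenchymal markers were present, Thy1 at 925 to 1210 FPKM and Vim at 3675 to 5414. None of the 9 passed between the films, but 2 were lower on ISB-P with the block, where 11.4% of all tested genes were. Pdgfrb, a platelet-derived growth factor receptor, was 166 ± 11.6 FPKM on PCL and 97.8 ± 11.5 on ISB-P (SD, n = 3, adjusted p = 0.0510 in limma, 1.41e-04 with the block). Pdgfra was 42.9 ± 4.06 and 35.01 ± 4.56 (0.547, 0.0200 with the block). The part of this in the film differences of the Klf genes was not tested. The 7 endothelial markers stayed under 1 FPKM in every library, with Emcn listed at 0 throughout and Pecam1 at 0.0732 FPKM at most, and so did the 7 T and NK cell markers, with Cd3e listed at 0 throughout. These are the cell types in which Klf2 is best known. The summed endothelial level was 0.482 to 0.495 FPKM on PCL, 0.778 to 0.867 on ISB-P and 1.39 on TCP, and that of T and NK markers 0.159 to 0.455, 0.143 to 0.272 and 1.03. On ISB-P the endothelial sum was higher mainly through Kdr (0.0583 to 0.0819 FPKM on PCL, 0.243 to 0.365 on ISB-P), and on TCP through Tie1 (0.755 FPKM). The 6 haematopoietic and myeloid markers summed to 39.2 to 46.6 FPKM on PCL and 39.4 to 45.3 on ISB-P, but to 130 on TCP, where Lyz2 was 72.9 and Cd68 15.1. Of the 4 tested none passed in limma. With the block, 1 passed as higher on ISB-P, Lyz2 (means 19.6 and 23.9 FPKM, adjusted p = 0.0299 in limma). In the same fit 1 passed as lower, Cd14 (15.3 and 11.2 FPKM, adjusted p = 0.00663). Both were named after their values were seen, and 13% and 11.4% of all tested genes were so called. Adipocyte markers summed to 0.457 to 0.963 FPKM on the films and 4.83 on TCP. The part of these cells in the TCP levels of Klf2 and Klf4 was not tested.

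Of the other relatives, 5 further Klf genes were listed. Klf16 and Klf12 were 20.01 and 3.74 FPKM on PCL and 19.2 and 3.60 on ISB-P, and neither passed the test. Klf11, named after its values were seen and a close relative of Klf10, was 1.11 ± 0.149 FPKM on PCL and 1.89 ± 0.0603 on ISB-P (SD, n = 3; log2 difference 0.46, adjusted p = 0.0922 in limma, 0.0127 with the block). Klf1 and Klf14 stayed under 1 FPKM. Of 8 Sp genes, which share the zinc fingers of the family, 5 were tested and none passed, nor had any an unadjusted p under 0.05 (0 of 5), with a median log2 difference of 0.05, against 0.02 over all tested genes. Sp1 was 29.8 FPKM on PCL and 34.7 on ISB-P, and Sp2 8.03 and 9.94. With the block 1 of the 5 passed as lower, where 11.4% of all tested genes did. It was Sp7 (osterix, named after its values were seen, adjusted p = 0.0376 in limma).

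The MEKK3-ERK5-MEF2 cascade, which induces Klf2 and Klf4 and is held back by the cerebral cavernous malformation proteins, had 9 tested genes. None passed the limma test, 0 had an unadjusted p under 0.05, and their median log2 difference was -0.06. The list pools genes that drive the cascade with genes that restrain it, Pdcd10 and Ccm2 among the latter. Its median is therefore not a measure of how active the cascade was. Pdcd10 was 44.9 FPKM on PCL and 52.7 on ISB-P, and Ccm2 48.6 and 46.4, with overlapping films. With the block Mef2a passed as higher and Hdac5, a repressor of MEF2, as lower (adjusted p = 0.0323 and 0.00599 in limma, both named after their values were seen). Of all tested genes, 13% passed as higher and 11.4% as lower with the block. Mapk7, the gene of ERK5, was listed at 0 in all 7 libraries, and so has no usable level here. Among 9 tested cofactors and ubiquitin ligases of KLF proteins none passed in limma and 0 had an unadjusted p under 0.05, and Sin3b and Hdac2 were 74.3 and 70.0 FPKM on PCL and 74.8 and 76.9 on ISB-P. With the block, 1 of these 9 passed as lower, where 11.4% of all tested genes did. It was Sin3a (adjusted p = 0.0484 in limma), named after its values were seen.

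Of 9 genes known as targets of Klf2 and Klf4 in endothelium, 6 were tested and none passed in limma, 0 at an unadjusted p under 0.05, with a median log2 difference of 0.04 and a range of -0.23 to 0.12. Cdkn1a, a cell cycle inhibitor, was 217 ± 18.9 FPKM on PCL and 238 ± 30.2 on ISB-P (SD, n = 3). Edn1, Nos3 and Tek stayed under 1 FPKM. With the block, 1 of the 6 passed as lower, where 11.4% of all tested genes did. It was Plat (adjusted p = 0.0352 in limma, named after its values were seen).

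Glucocorticoid targets were included because Klf9 and Klf15 belong to them. Of 6 tested genes 1 passed as higher, Tsc22d3, the glucocorticoid-induced leucine zipper, at 11.6 ± 1.72 FPKM on PCL and 36.1 ± 6.08 on ISB-P (SD, n = 3; log2 difference 1.56, standard error 0.17, adjusted p = 0.0109 in limma). Dusp1, a MAP kinase phosphatase, was 29.8 and 57.3 FPKM (adjusted p = 0.0523 in limma, 7.81e-05 with the block). Mt2A, a metallothionein, was 36.0 and 22.3 FPKM (adjusted p = 0.0884, 0.00180 with the block). The list thus held 2 genes called as higher and 1 as lower of 6 with the block, where 13% and 11.4% of all tested genes were so called, and its median log2 difference was 0.26.

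TGF-beta early targets were included because Klf10 is one of them. None of the 5 tested genes passed in limma, and 1 had an unadjusted p under 0.05. Their median log2 difference was 0.08, with 3 of the 5 higher on ISB-P. Tgif1 was 59.2 FPKM on PCL and 69.0 on ISB-P. Smad7 (log2 difference -0.11) and Tgfbi (-0.20), both named after their values were seen, were lower on ISB-P. With the block, 1 of the 5 passed as higher, where 13% of all tested genes did. It was Id1 (adjusted p = 0.0120 in limma, named after its values were seen). Among 7 tested adipogenic factors 1 passed as higher, Egr2 (Krox20), at 1.02 ± 0.0412 FPKM on PCL, 2.28 ± 0.381 on ISB-P (SD, n = 3) and 6.19 on TCP (log2 difference 0.69, standard error 0.12, adjusted p = 0.0445 in limma). Cebpb varied more between replicates than between films, at 85.3 ± 37.7 and 90.8 ± 43.6 FPKM (SD, n = 3). Ebf1 was 24.3 and 32.4 FPKM (adjusted p = 0.430, 0.00630 with the block). The median of the list was 0.23, and with the block 3 of the 7 passed as higher, where 13% of all tested genes did.

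**Figure D5:**
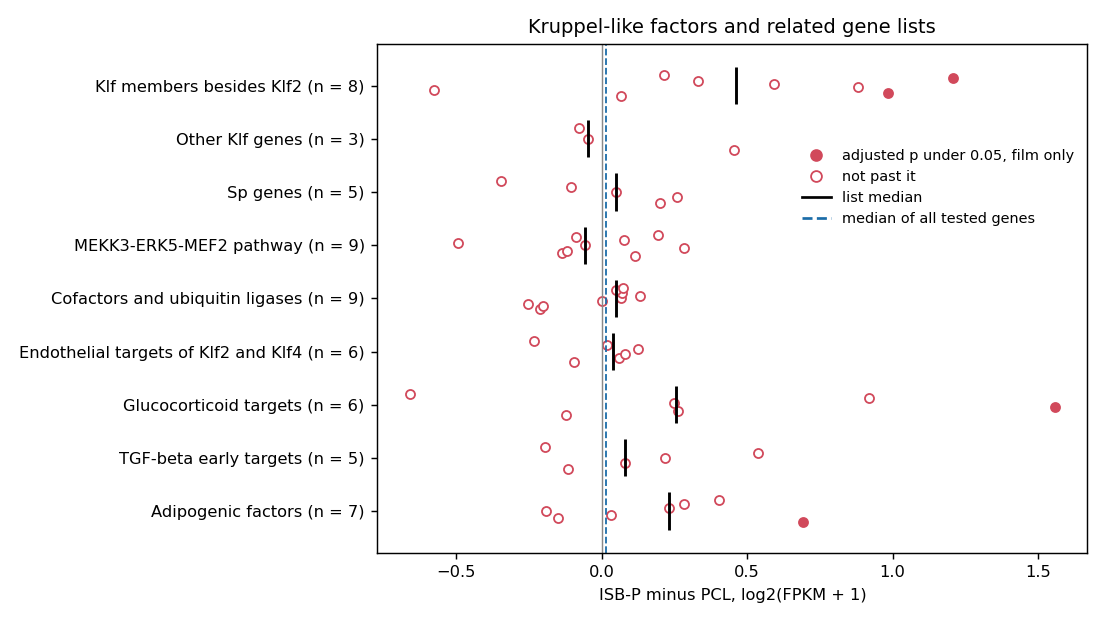
Difference between ISB-P and PCL in log2(FPKM + 1) (x axis) for each tested gene of the Kruppel-like factors besides Klf2 and of 8 related lists. Filled points passed an adjusted p of 0.05 in the fit on film alone, bars are list medians and the dashed line is the median of all tested genes (0.02). Only Klf4, Klf10, Tsc22d3 and Egr2 are filled; the medians of the other lists lie between -0.06 and 0.26.

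Over the 7 libraries, the genes whose log2 levels ran closest to those of Klf2, among 5648 genes that reached 16 FPKM in at least 1 library, were Rhob (Pearson r = 0.985), Pkp1 (0.975), Trib1 (0.970), Tgfb1i1 (0.965) and Dusp1 (0.963). Rhob, a small GTPase induced early after stress, was 39.0 to 47.8 FPKM on PCL, 96.3 to 162 on ISB-P and 224 on TCP. Trib1, a pseudokinase, was 17.3 to 22.5, 27.9 to 45.1 and 38.3 FPKM. Tgfb1i1, a focal adhesion protein also called Hic-5, was 136 to 171, 179 to 241 and 234 FPKM. All 5 share with Klf2 a low level on PCL, and like Klf2 all 5 were lowest in replicate 3 on either film. Ranking by r with Klf2 over these same libraries selects for both traits, so neither is a separate result. Within the family, Klf9 was closest to Klf2 (0.941) and Klf10 to Klf7 (0.919), and Klf4 was closest to Klf2 (0.899). Klf5 had no positive r with any other member. These r values are a description over 7 libraries that share 3 surfaces, and they carry no test.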

How the data were processed

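RNA of rMSCs on TCP (1 library), PCL (3) and ISB-P (3) was measured with strand-specific mRNA libraries read as paired ends. The authors deposited 1 table per library, read here as FPKM: the unit is not named, but the values are not whole numbers, their sums differ between libraries, and the submitters' processing notes list Cuffdiff 2.2.1 beside bcl2fastq 2.20.0.422, cutadapt 1.18, TopHat2 2.0.13 and build rn5, with no roles. The paper names ExDEGA for the analysis. Values were used as deposited. Low values stepped together in too few genes (7.83% to 45.1% of low genes per pair of libraries in the densest log2 window of 0.15) to give relative depth.

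The 9467 genes reaching 1 FPKM in 3 or more of the 6 film libraries were compared with limma 3.58.1 in R 4.3.3 on log2(FPKM + 1), with a mean-variance trend, two-sided, and Benjamini-Hochberg adjustment. Of the 10 members, 9 passed this filter, each with at least 1 FPKM in all 6 film libraries. A fold change on this scale understates changes of low genes. The replicate numbers of the labels were taken to pair the films: deviations from film means correlated across genes at 0.887, 0.431 and 0.867 for numbers 1, 2 and 3. For different numbers r ran from -0.836 to 0.177, with an average of -0.356. Deviations cancel out within each film, so that average largely follows from the same-number values and is no separate check. The replicate numbers are those of the sample titles. The column headers of the files carry other numbers and share only the number 2, which they give to PCL replicate 3 and ISB-P replicate 2 of the titles, whose deviations correlated at -0.260. In data simulated with a replicate effect, the fit on film alone recovered 41% of 200 changes of 1 log2 unit, with 0 false calls. The blocked fit recovered 86.5%, with 4 false calls. A gene not called on film alone may therefore still differ.

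Members and gene lists were chosen with earlier results of these data known. Named from each list were the genes called without the block (at most 4) and, where fewer than 2 were called, the 2 with the highest mean; others are said to be named after their values were seen, and 1 gene that the rule names is not reported here; the 5 genes most like Klf2 were taken by Pearson r. Alternatives were other scalings, pseudocounts and filters, the block, TCP in the fit, no trend and each library left out. Promoters came from RefSeq (GRCr8). Mef2c, Hdac7, Ep300, Kat2b, Fbxw7, Skil, Ski, Ccn2, Klf8, Klf17, Sp3 and Adgre1 were not analysed here. Figures used matplotlib 3.10.9 in Python 3.11.15.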

Additional observations from a re-analysis of the deposited data

How the results depend on the processing

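Without the block, 2 members besides Klf2 were called between ISB-P and PCL (Klf4 and Klf10). The number was 1 (Klf10) under upper quartile scaling and under scaling to a common total, and 0 to 2 with each library left out in turn. With the replicate block, where same-numbered libraries are treated as pairs, it was 6, and the block changed no other call among the members tested. Alternatives to the blocked fit were chosen after seeing the data: the number was 5 under scaling to a common total, 6 under the other scalings, a pseudocount of 0.1 and no trend, and 5 to 7 without each replicate number (Klf9 was lost without number 1 or 2, and Klf13 was called without 2 or 3). Over all tested genes, 163 were called without the block, 105 when at least 1 FPKM was required in all 6 film libraries, 20 to 113 with each library left out (20 without PCL replicate 2), and 2307 with the block. Calls higher and lower on ISB-P were 104 and 59 as deposited and 70 and 70 after scaling to a common total, or 1228 and 1079 against 714 and 2113 with the block. The log2 difference of Klf3 turned from 0.07 to -0.04 (-0.042 to 3 decimals) under scaling to a common total, and ran from -0.17 to 0.26 with each library left out, negative without ISB-P replicate 3 (-0.12) and PCL replicate 1 (-0.17). That of Klf13 ran from -0.19 (without PCL replicate 1) to 0.51 (without PCL replicate 2). No other member changed direction under any alternative. The causes were not tested. Genes called between replicate numbers were 5527, and 2593 to 5571 without each number in turn; members so called were 4, and 3 to 7. Members with films that did not overlap were 8, and 7 under upper quartile scaling and scaling to a common total. The 8 hold Klf2, whose levels chose the family, and Klf15, which was not tested. Without these, as deposited, 5 of the 8 tested members were higher and 1 was lower, where 17.7% of all tested genes did not overlap. Members past 2-fold between TCP and PCL were 3, 4 under each of the 3 other scalings, and 3 to 4 with each PCL library left out. All these counts hold Klf2, which was picked on this contrast. As deposited, 1 of the other 8 tested members was higher and 1 lower, where 8.6% of all tested genes were past 2-fold. Members past 2-fold between TCP and ISB-P were 1 (Klf4), where 13.3% of all tested genes were. With each ISB-P library left out they were 1 to 2, Klf2 being added without replicate 1. Depth is unknown, so no smallest detectable level is given for Klf15, Klf1 or Klf14.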
